A study of Mus musculus with 36 samples.

Results

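Extracellular matrix and hepatic stellate cell genes were followed in the livers of mice with and without the insulin receptor in hepatocytes. The set held 42 genes for collagens, laminins, proteoglycans, matrix glycoproteins, matrix proteases and their inhibitors, stellate cell proteins and related growth factor and adhesion genes, of 22916 genes tested in all. Members were found by the gene name in the scanner files. A probe counted if 6 or more of the 36 arrays read it well above background, and the probe with the highest mean stood for its gene. All 42 members were on the array and passed, through 78 of 97 probes. On every one of the 36 arrays, 34 members were well above background, and the other 8 (Col5a2, Col15a1, Lox, Mmp2, Eln, Des, Thbs1 and Loxl1) were so on 7 to 35 arrays.

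The study compared total liver RNA of 36 male mice of 11 weeks, 1 array per mouse, in 6 groups of 6. Knockouts (IRLKO in the labels) carried loxP sites around exon 4 of the insulin receptor gene Insr and a tamoxifen-inducible Cre recombinase under the transthyretin promoter (TTR-CreTam), from a cross with C57BL/6J mice. The labels call the controls IRLWT and do not say whether they carried Cre, nor when tamoxifen was given. Both genotypes were sampled at Zeitgeber time (ZT) 8, 12 and 16, hours after lights on, with lights off at ZT12, on chow with free access. No treatment is named beyond the tamoxifen that induces Cre. The question was how loss of the hepatocyte receptor alters liver transcripts at each time.

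The liver's matrix is thin in health. Quiescent stellate cells in the space between hepatocytes and sinusoidal endothelium store vitamin A as retinyl esters and make much of the matrix, and portal fibroblasts, endothelium and hepatocytes add to it. After injury, transforming growth factor beta and platelet-derived growth factor (PDGF) drive stellate cells to a contractile, collagen-producing state. The Cre driver acts in hepatocytes, so most members are made chiefly by cells that the deletion does not target. In total liver RNA, fewer cells of a type and less RNA per cell cannot be told apart.

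A level is a log2 signal with the array's own 75th percentile set to 0, and a difference is a log2 ratio of knockout to control. Insr was lower on every knockout array than on any control of its time, with medians of -3.05, -3.44 and -3.18 in knockouts and -1.40, -1.58 and -1.70 in controls at ZT8, ZT12 and ZT16. The 75th percentile signal was 311 to 525 intensity units and 53.7% to 63.1% of spots were well above background. The 3 wash batches of 11 to 13 arrays each held all 6 groups, with 1 to 3 arrays per group, and wash batch was a term of the fit. Genes are called at an adjusted p under 0.05 in limma, by Benjamini-Hochberg over all 22916 genes, and the p-values measure the spread between mice.

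All 17 genes of a stellate cell list were measured, 15 of them on every array, and 4 of them (Lrat, Reln, Des and Pdgfrb) are members. Of 10 genes of activated stellate cells and myofibroblasts, 8 were measured, and 4 of them (Acta2, Timp1, Col1a1 and Lox) are members. All 8 hepatocyte markers were well above background on every array.

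Knockout ZT8 replicate 3 stood apart in these genes. Its mean level over the 42 members was 0.68, against -0.88 to 0.10 in the other 5 arrays of its group, and it had the highest level of the group for 36 members. Summed signal of some other cell type lists was also highest there, on the log2 scale: 4.56 for portal fibroblasts (others 3.38 to 4.18), 3.05 for vascular smooth muscle (2.23 to 2.61), 2.37 for mesothelium (-1.98 to 1.61) and 4.48 for lymphocytes and neutrophils (3.56 to 3.97). So were the sums for red cells (8.55, others 7.51 to 8.27) and activated stellate cells and myofibroblasts (4.47, 2.97 to 4.44). Other sums lay within the range of the rest of the group. These were Kupffer cells (7.61, others 6.10 to 8.17), sinusoidal endothelium (5.29, 5.03 to 5.52) and bile duct (2.86, 1.04 to 3.70). The stellate cell sum was 7.46, within the 7.12 to 8.06 of the others, and the hepatocyte sum was 11.5, below their 11.6 to 12.1. A sum follows the brightest genes of its list. Of its members, Reln (2.18, others 1.34 to 2.15), Pdgfrb (1.12, -0.56 to 0.37) and Des (-3.28, -5.23 to -3.93) were highest on this array. Lrat was not (-0.66, -1.48 to -0.50). In other groups too 1 array was highest for most members: control ZT16 replicate 6 for 32, knockout ZT16 replicate 6 for 28, knockout ZT12 replicate 6 for 27 and control ZT12 replicate 3 for 25. Control ZT8 replicate 2 and knockout ZT8 replicate 1 were each lowest of their group for 25. Members thus moved together between mice of a group, and a count of members is not a count of independent events.

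**Figure D1:**
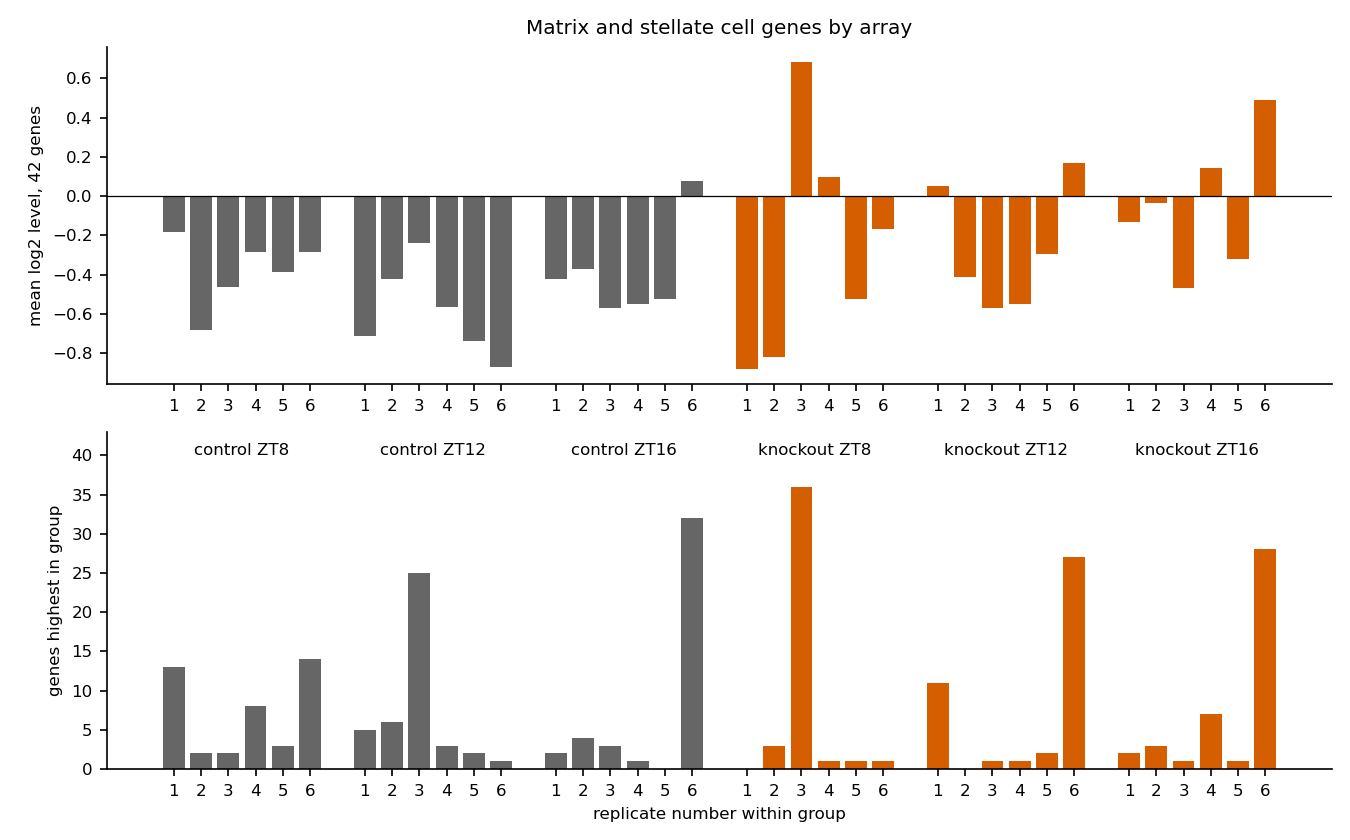
Mean log2 level of the 42 genes on each array (top) and number of the 42 genes for which the array was the highest of its group (bottom), by group and replicate number, controls in grey and knockouts in orange. Knockout ZT8 replicate 3 reaches 0.68 and is highest for 36 genes.

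At ZT12 and ZT16 most members lay higher in knockouts, while at ZT8 they were spread about zero. At ZT8, 5 of the 42 members rose and none fell (11.9% called, against 35.5% of all genes tested, 16.7% of them higher and 18.7% lower). At ZT12, 13 rose and 1 fell (33.3%, against 42.3% of all genes, 19.6% higher and 22.7% lower). At ZT16, 11 rose and 1 fell (28.6%, against 40% of all genes, 20% higher and 20.1% lower). Of the members called at ZT12 and ZT16, all but Acta2 were higher in knockouts. Groups did not overlap, with knockouts above, for 1, 8 and 4 members at the 3 times, against 6.12%, 8.39% and 9.22% of all genes, and no member lay wholly below controls (9.41%, 13% and 10% of all genes).

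At the 3 times the median log2 ratio of the members was 0.07, 0.42 and 0.39, where that of all genes was 0.01, -0.02 and 0.00. Ratios were above zero for 26, 34 and 36 of the 42 members, and for 50.7%, 48.3% and 50.3% of all genes. Without knockout ZT8 replicate 3 the ZT8 median turned to -0.13, with 18 members above zero and 24 below, while the ZT12 and ZT16 medians were 0.42 and 0.42. In that fit 5 members rose and 1 fell at ZT8 (36.1% of all genes called, 18.3% higher). At ZT12, 16 rose and 1 fell (44.6%, 21.0% higher), and at ZT16, 13 rose and 1 fell (42.9%, 21.5% higher). The ZT16 median was 0.24 without knockout ZT16 replicate 6, and the background correction of the array signal with the normexp model gave 0.23 at ZT12 and 0.21 at ZT16. Of the 42 members, 14 were called at 1 or more times, against 60.4% of all genes, and 28 at none. A further 36 kept probes read 23 of the members, and limma was also run over all kept probes. Where the gene was called, its other probes were called the same way in 2 of 2 cases at ZT8, 10 of 15 at ZT12 and 5 of 11 at ZT16. None was called the opposite way. Where the gene was not called, another probe was in 4, 2 and 3 cases.

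**Figure D2:**
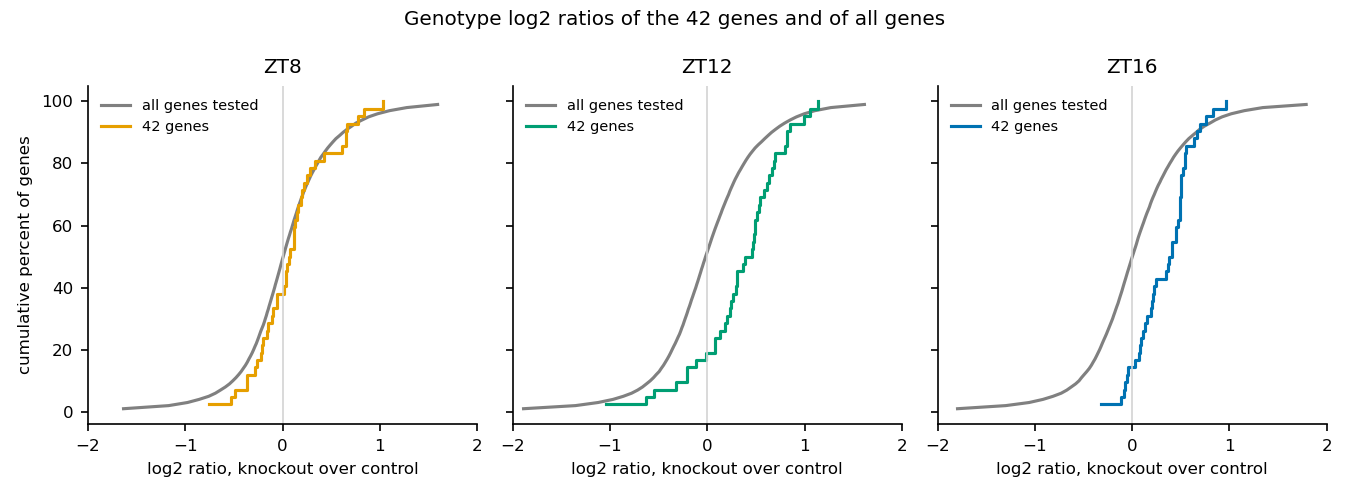
Cumulative percent of genes by log2 ratio of knockout to control at ZT8, ZT12 and ZT16, for the 42 genes (coloured steps) and all 22916 genes tested (grey). The 42 genes follow all genes at ZT8 and lie to their right at ZT12 and ZT16, with medians of 0.42 and 0.39.

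**Figure D3:**
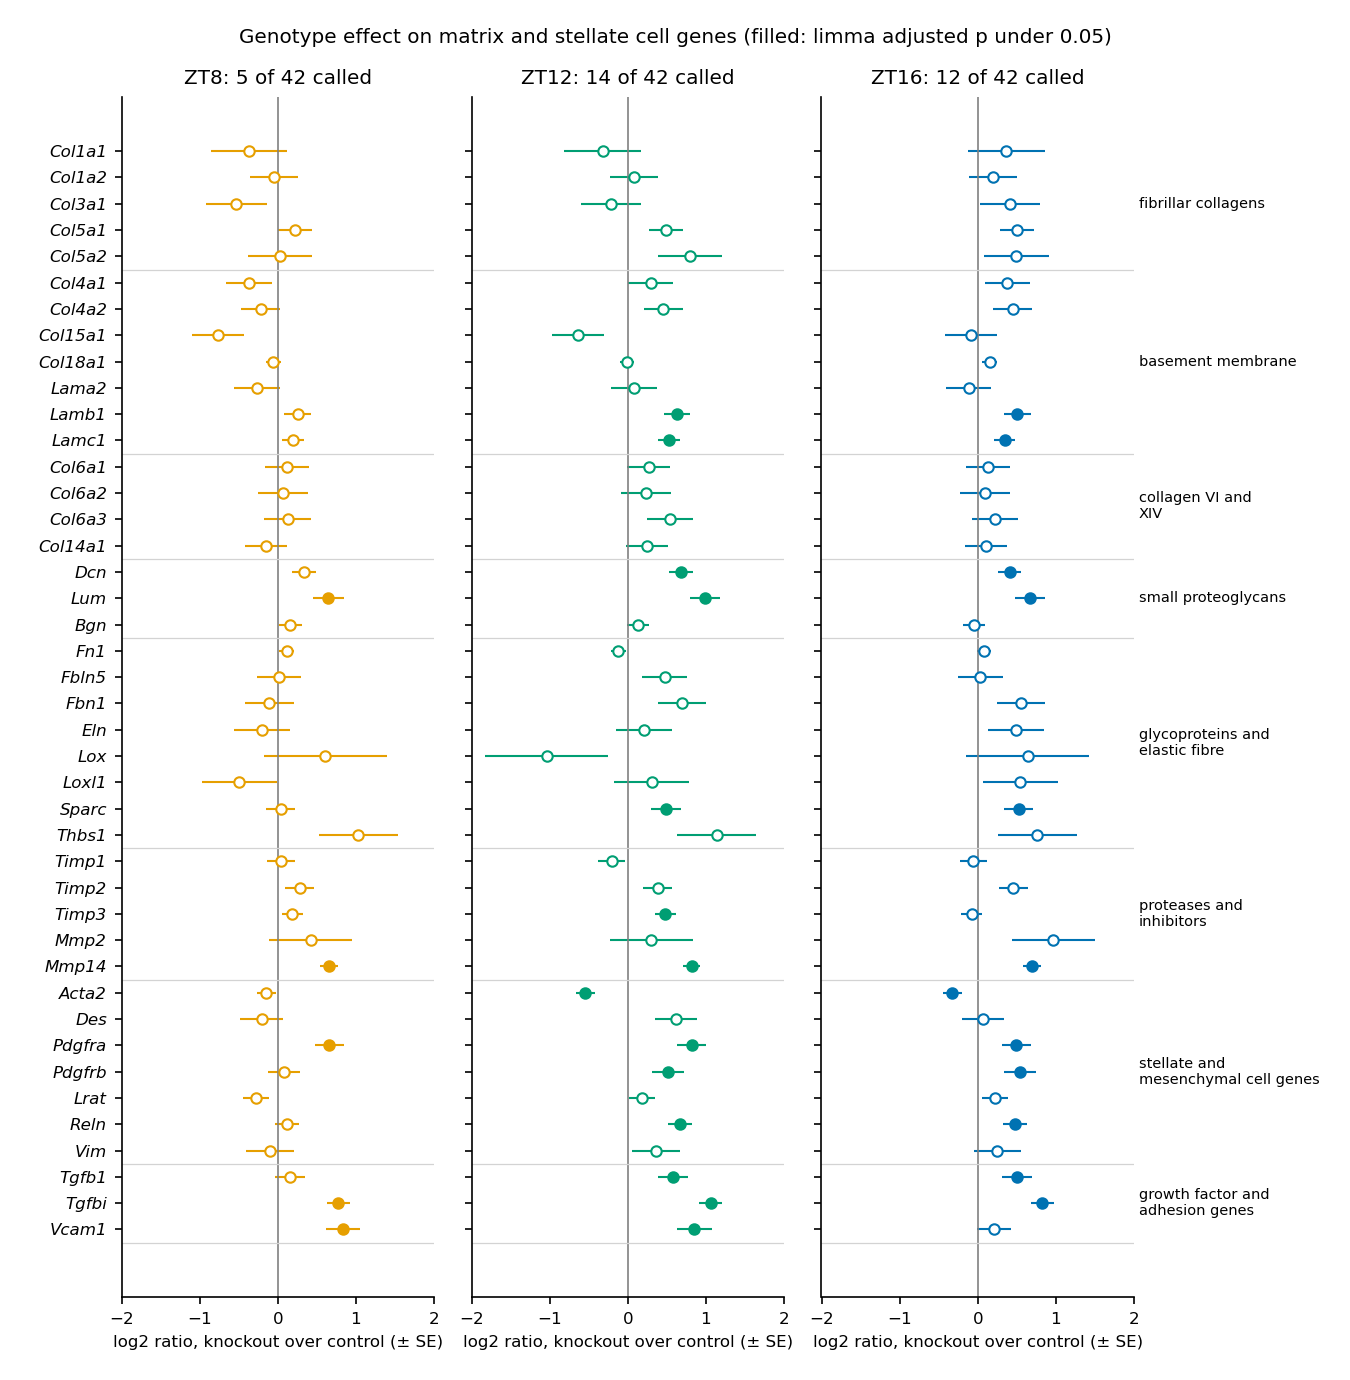
Fitted log2 ratio of knockout to control with its SE for each of the 42 genes at each time, grouped by role, with called genes filled. The 5, 14 and 12 filled points are nearly all to the right of zero, and Acta2 is the one filled point to the left at ZT12 and ZT16.

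In all, 4 members rose at all 3 times: the protease Mmp14, the secreted matrix protein Tgfbi, the proteoglycan Lum and the PDGF receptor Pdgfra (called higher at all 3 times were 8.91% of all genes). No member fell at all 3 times, as 10.6% of all genes did. RefSeq promoter windows (build GRCm38.p6) were available for 28 of the 42 members. They are shown for the 3 of these 4 genes that had one and, for contrast, for Acta2, the member that fell, and Col1a2, a fibrillar collagen with no call. Each is the 250 bases before the annotated start, 5′ to 3′ on the gene's strand. Capitals mark, on either strand, the matches of 4 searched motifs, which were the forkhead (FoxO) motif GTAAACA, the NF-Y box CCAAT, the Sp1 motif GGGCGG and CAGACA, a form of the SMAD element.
Mmp14: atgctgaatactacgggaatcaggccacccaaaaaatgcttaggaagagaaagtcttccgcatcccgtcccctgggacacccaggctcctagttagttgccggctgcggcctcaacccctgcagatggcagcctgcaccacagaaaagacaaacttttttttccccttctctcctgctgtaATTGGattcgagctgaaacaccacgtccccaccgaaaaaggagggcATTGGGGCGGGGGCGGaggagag
Tgfbi: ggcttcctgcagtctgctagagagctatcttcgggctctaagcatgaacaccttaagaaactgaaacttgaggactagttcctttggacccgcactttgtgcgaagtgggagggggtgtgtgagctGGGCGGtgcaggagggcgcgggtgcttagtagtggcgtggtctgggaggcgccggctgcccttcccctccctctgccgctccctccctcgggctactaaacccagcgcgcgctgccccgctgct
Pdgfra: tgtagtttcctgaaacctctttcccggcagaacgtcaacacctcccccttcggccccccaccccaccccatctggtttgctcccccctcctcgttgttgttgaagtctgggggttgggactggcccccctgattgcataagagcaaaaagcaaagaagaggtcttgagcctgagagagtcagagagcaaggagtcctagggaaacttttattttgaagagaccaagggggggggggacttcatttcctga
Acta2: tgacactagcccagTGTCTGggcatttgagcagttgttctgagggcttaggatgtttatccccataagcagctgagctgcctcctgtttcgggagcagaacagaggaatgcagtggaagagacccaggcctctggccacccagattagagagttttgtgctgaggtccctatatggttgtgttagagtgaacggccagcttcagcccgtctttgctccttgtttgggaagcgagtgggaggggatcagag
Col1a2: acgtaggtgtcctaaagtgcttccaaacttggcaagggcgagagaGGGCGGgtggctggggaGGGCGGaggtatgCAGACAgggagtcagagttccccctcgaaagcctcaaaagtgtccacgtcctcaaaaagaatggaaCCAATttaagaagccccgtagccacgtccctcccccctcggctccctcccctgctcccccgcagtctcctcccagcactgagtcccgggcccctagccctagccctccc
The windows lie at chr14:54431348-54431597 (plus strand) for Mmp14, chr13:56609336-56609585 (plus) for Tgfbi, chr5:75152001-75152250 (plus) for Pdgfra, chr19:34255374-34255623 (minus) for Acta2 and chr6:4505368-4505617 (plus) for Col1a2. Mmp14 had 2 CCAAT and 2 GGGCGG matches, of which one CCAAT and one GGGCGG share a base. Tgfbi had 1 GGGCGG match and Pdgfra had a match to none of the 4 motifs. The Acta2 window held 1 CAGACA match, and that of Col1a2 held 1 CCAAT, 2 GGGCGG and 1 CAGACA. Over the 31 windows of members, GTAAACA was present in 3.23% (3.17% of all 32851 windows), CCAAT in 35.5% (33.8%), GGGCGG in 61.3% (32.7%) and CAGACA in 22.6% (17.1%). A match is a match of letters and says nothing of binding.

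Mmp14 encodes a membrane-bound metalloprotease that cleaves collagen and activates the proenzyme of Mmp2. It was read on chromosome 14 (mm9, 55058775 to 55058834). In controls its level was -1.98 to -1.63 (median -1.78) at ZT8, -1.95 to -1.54 (-1.77) at ZT12 and -1.71 to -1.04 (-1.29) at ZT16. In knockouts it was -1.54 to -0.74 (-1.13), -1.20 to -0.74 (-0.92) and -0.81 to -0.57 (-0.64). All 6 knockouts lay above all 6 controls at each of the 3 times. Its log2 ratios at the 3 times were 0.66, 0.82 and 0.70 (SE 0.11; limma adjusted p 2.72e-05, 7.93e-07 and 1.03e-05), or 1.58-, 1.76- and 1.62-fold. Within single wash batches it ran from 0.28 to 0.91, and without knockout ZT8 replicate 3 the ZT8 ratio was 0.58.

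Tgfbi encodes a secreted protein, induced by transforming growth factor beta, that links collagen to integrins (chromosome 13, mm9, 56740460 to 56740519). Control levels were 2.78 to 3.43 (median 3.07) at ZT8, 2.73 to 3.25 (2.97) at ZT12 and 2.83 to 3.26 (2.94) at ZT16. Knockout levels were 3.35 to 4.58 (3.78), 3.74 to 4.31 (3.97) and 3.67 to 4.05 (3.82). The groups did not overlap at ZT12 and ZT16 and overlapped slightly at ZT8. It had the largest rise of the members called at ZT12, with a ratio of 1.06 (2.08-fold; limma adjusted p 6.5e-07), and at ZT16, with 0.83 (3.1e-05), and at ZT8 the ratio was 0.78 (8.3e-05; SE 0.14 at each). Batch by batch the ratio was 0.47 to 1.34, and the ZT8 value was 0.63 without knockout ZT8 replicate 3.

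**Figure D4:**
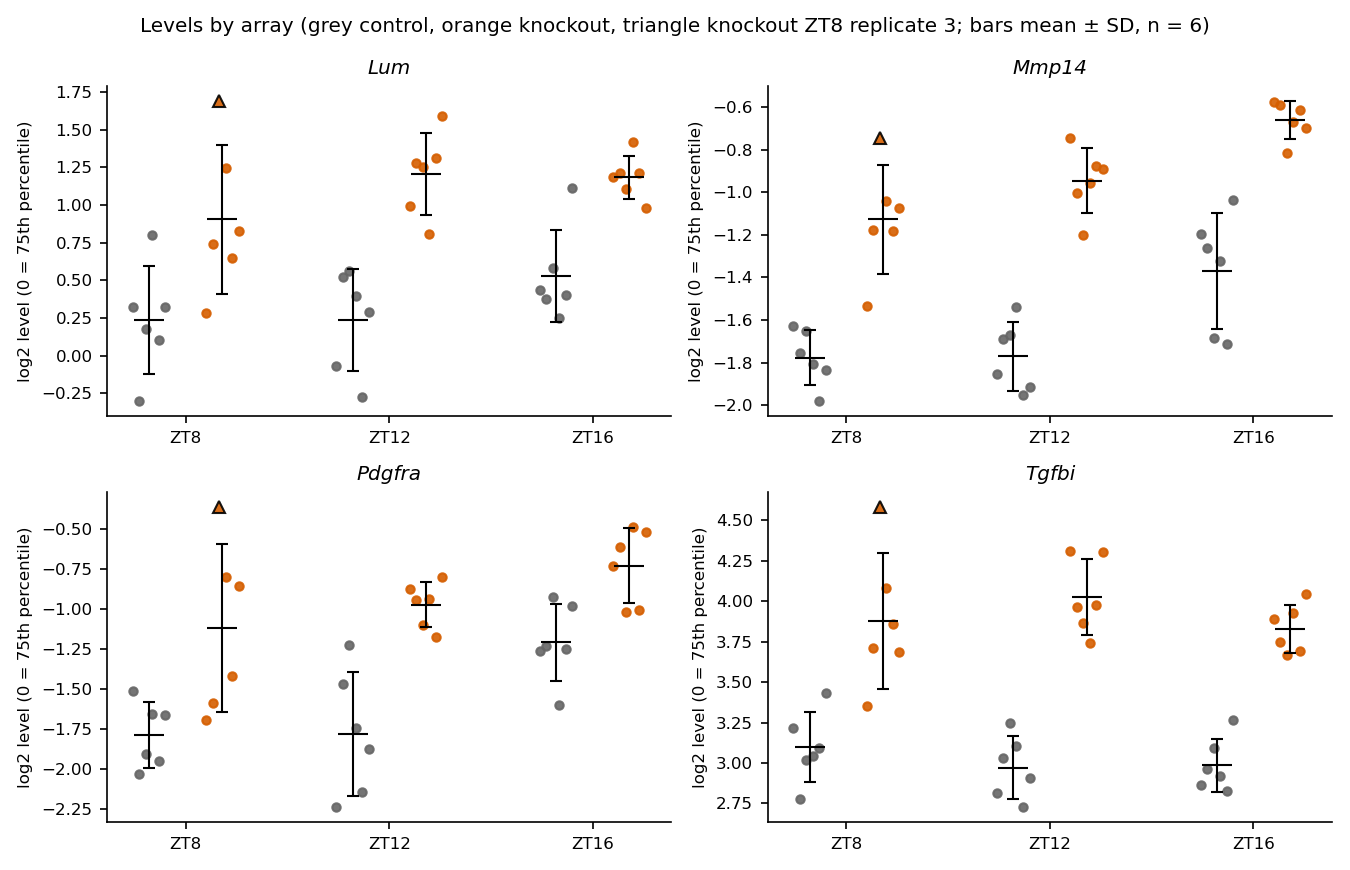
Levels of Lum, Mmp14, Pdgfra and Tgfbi on each array (log2, 0 is the array's 75th percentile) at ZT8, ZT12 and ZT16, controls in grey and knockouts in orange, with mean and SD of 6 arrays. For Mmp14 all 6 knockouts lie above all controls at each time, and the triangle, knockout ZT8 replicate 3, is the highest of its group for all 4 genes.

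Lum encodes lumican, a small proteoglycan that binds collagen fibrils (chromosome 10, mm9, 97035210 to 97035269). Its control levels were -0.30 to 0.80 (median 0.25) at ZT8, -0.28 to 0.56 (0.34) at ZT12 and 0.25 to 1.11 (0.42) at ZT16. Among knockouts they were 0.28 to 1.69 (0.79), 0.81 to 1.59 (1.26) and 0.98 to 1.42 (1.20). Knockouts lay wholly above controls at ZT12 and overlapped with them at the other times. Ratios were 0.65, 0.99 and 0.67 (SE 0.19; limma adjusted p 0.00948, 0.000137 and 0.00677). Within wash batches the ZT16 ratio ran from -0.07 to 0.97. It was lowest in batch 1, which held 1 control and 2 knockouts of that time. Without knockout ZT8 replicate 3 the ZT8 ratio was 0.47 (adjusted p 0.0415), and a fit of only the 2 groups compared did not call it (0.0881).

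Of the other small proteoglycans, which share the leucine-rich repeats of lumican, decorin rose at ZT12 and ZT16 and biglycan was not called. Decorin (Dcn) was 5.28 to 5.74 (median 5.40) in ZT8 controls, 4.95 to 5.76 (5.28) in ZT12 controls and 5.35 to 6.18 (5.68) in ZT16 controls. Its knockout levels were 5.16 to 6.45 (5.75), 5.94 to 6.10 (6.03) and 5.93 to 6.33 (6.16), without overlap at ZT12 only. The ratios of Dcn were 0.34, 0.68 and 0.41 (SE 0.15; limma adjusted p 0.0818, 0.000542 and 0.0322). Within wash batches its ZT16 ratio ran from -0.12 to 0.60, lowest in batch 1, with 1 control and 2 knockouts. The ZT16 call was lost without any 1 of 6 single ZT16 arrays (controls 1, 3 and 4, knockouts 1, 2 and 4), where the ratio fell as low as 0.34, and with slide as a block. Biglycan (Bgn) had ratios of 0.16, 0.13 and -0.05 (SE 0.15), while another of its probes was called higher at ZT12 (0.35, adjusted p 0.0461 in limma over all kept probes).

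Among fibrillar collagens, the load-bearing fibres that mark scarring, no member of 5 was called at any time. Col1a1 levels were -1.10 to 0.35 (median -0.14), -1.14 to 0.30 (-0.48) and -1.45 to 0.33 (-0.66) in controls at ZT8, ZT12 and ZT16. They were -2.15 to 1.36 (-0.56), -1.60 to 0.25 (-0.998) and -1.36 to 1.50 (-0.50) in knockouts. The groups overlapped at each time. The ratio was -0.37 at ZT8 (95% interval -1.36 to 0.63), -0.32 at ZT12 (-1.32 to 0.67) and 0.37 at ZT16 (-0.63 to 1.36).

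Col1a2, which joins Col1a1 in type I collagen, was 1.25 to 2.33 (median 1.78), 1.24 to 2.37 (1.81) and 1.41 to 2.71 (1.86) in controls. Knockouts read 0.76 to 3.14 (1.68), 1.52 to 2.34 (1.74) and 1.46 to 2.98 (1.96), and the groups overlapped at each time. Its ratios were -0.05, 0.08 and 0.20 (SE 0.31; limma adjusted p 0.914, 0.862 and 0.647). Col3a1, the collagen of reticular fibres, was 1.06 to 2.08 (1.81), 0.90 to 2.28 (1.53) and 0.61 to 2.15 (1.36) in controls. In knockouts it was -0.18 to 2.91 (1.44), 0.72 to 2.04 (1.08) and 1.01 to 2.70 (1.62), again with overlap throughout. Its ratios were -0.53, -0.21 and 0.41 (SE 0.39), with limma adjusted p of 0.303, 0.693 and 0.42. Without knockout ZT8 replicate 3 the ZT8 ratio of Col3a1 was -0.89 with an adjusted p of 0.0498, and it was then called lower. Type V collagen, which nucleates fibres, gave ratios of 0.22, 0.49 and 0.51 for Col5a1 (SE 0.22; adjusted p 0.461, 0.0663 and 0.0607) and 0.03, 0.79 and 0.50 for Col5a2, well above background on only 7 arrays. Without knockout ZT8 replicate 3 Col5a1 passed at ZT12 (0.0387) and at ZT16 (0.0303).

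**Figure D5:**
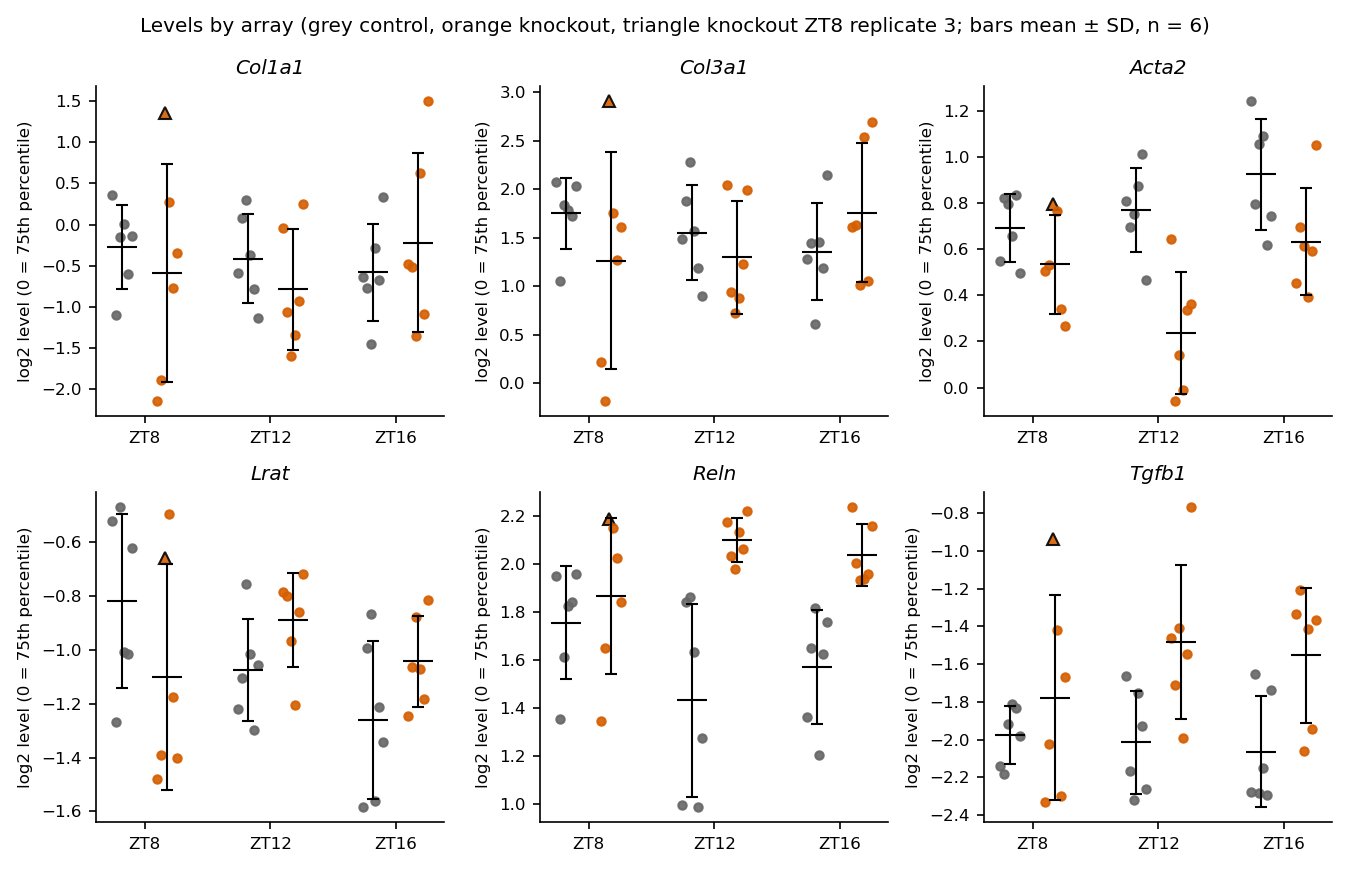
Levels of Col1a1, Col3a1, Acta2, Lrat, Reln and Tgfb1 on each array (log2, 0 is the array's 75th percentile), controls in grey and knockouts in orange, with mean and SD of 6 arrays and knockout ZT8 replicate 3 as a triangle. Col1a1 and Col3a1 overlap between genotypes at all times, and Reln knockouts lie above all controls at ZT12 and ZT16.

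Among genes of the basement membrane, a sheet of laminin and network collagen, 2 of 7 members rose at ZT12 and ZT16. By the probe that stood for each gene none was called at ZT8. The 2 that rose were the laminin chains Lamb1 and Lamc1. Lamb1 ratios were 0.26, 0.63 and 0.51 (SE 0.17), called at ZT12 (limma adjusted p 0.0039) and ZT16 (0.0196). At ZT16 all knockouts (0.60 to 1.12) lay above the highest control (0.60). Its ZT16 call was lost without control ZT16 replicate 4 (0.43, adjusted p 0.0551). Lamc1 ratios were 0.20, 0.53 and 0.34 (SE 0.14), with adjusted p of 0.292, 0.0027 and 0.0491. The ZT12 knockouts (0.81 to 1.34) lay above the controls (0.26 to 0.63), but the ZT16 call remained in only 11 of 36 fits that each left out 1 array. In limma over all kept probes, another probe of Lamb1 (0.56, adjusted p 0.0324) and another of Lamc1 (0.51, 0.00857) were called at ZT8.

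The other 5 basement membrane members were not called. Type IV collagen ratios were -0.37, 0.29 and 0.38 for Col4a1 (SE 0.29) and -0.22, 0.45 and 0.45 for Col4a2. The laminin chain Lama2 gave -0.26, 0.08 and -0.12. Col18a1, the source of endostatin and also made by hepatocytes, gave -0.06, -0.01 and 0.15 (SE 0.09), and it was called at ZT8 and ZT16 when arrays were quantile normalized or in the authors' table. Col15a1 gave -0.76, -0.63 and -0.08 (SE 0.33; limma adjusted p 0.0746, 0.129 and 0.864), on a probe well above background on only 8 arrays. Type VI collagen, a beaded microfibril, and the fibre-associated type XIV had no call among 4 members. Their ratios lay between -0.16 and 0.13 at ZT8, 0.24 and 0.54 at ZT12, and 0.09 and 0.22 at ZT16. Another Col6a3 probe was called higher at ZT12 in limma over all kept probes (0.63, adjusted p 0.0238).

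Of 8 matrix glycoproteins and elastic fibre genes, 1 rose at ZT12 and ZT16. This was Sparc, a collagen-binding protein that regulates fibre assembly, with levels of 5.08 to 5.67 (median 5.45), 4.94 to 5.44 (5.07) and 5.13 to 5.70 (5.34) in controls. In knockouts they were 4.78 to 6.35 (5.45), 5.33 to 6.05 (5.50) and 5.54 to 6.62 (5.80), with overlap at each time. Ratios were 0.04, 0.49 and 0.52 (SE 0.19; limma adjusted p 0.9, 0.037 and 0.0269). The ZT12 call was lost without any of 7 single ZT12 arrays and the ZT16 call without any of 4 ZT16 arrays (ratios down to 0.39 and 0.40). In the fit with replicate number as a block the ZT12 call was lost as well.

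Fn1, fibronectin, which hepatocytes also secrete into plasma, gave 0.11, -0.12 and 0.08 (SE 0.09) and was not called. A pair of its other probes gave 0.45 and 0.47 at ZT8, with adjusted p of 0.00301 and 0.00596 in limma over all kept probes, so its probes disagreed. Thbs1, a matricellular protein that activates latent transforming growth factor beta, had the largest ratios among members at ZT8 and ZT12, but not past the threshold. These were 1.03, 1.14 and 0.76 (SE 0.51; adjusted p 0.113, 0.0709 and 0.24). The microfibril gene Fbn1 gave -0.11, 0.70 and 0.56 (adjusted p 0.823, 0.07 and 0.156), and without knockout ZT8 replicate 3 it was called at ZT12 (0.71, 0.0311). Elastic fibre genes Fbln5 (ZT12 ratio 0.47) and Eln (0.21) and the cross-linking enzymes Loxl1 (0.31) and Lox (-1.04) were not called at any time. Lox was well above background on only 7 arrays.

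Among 5 proteases and inhibitors, Mmp14 rose at each time and Timp3 at ZT12. Timp3, an inhibitor that stays bound to the matrix, was 1.58 to 1.90 (median 1.88), 1.76 to 2.60 (2.14) and 2.19 to 2.83 (2.40) in controls. Its knockout levels were 1.72 to 2.65 (1.90), 2.49 to 2.83 (2.68) and 2.22 to 2.54 (2.38), overlapping at each time. The ratio was 0.19, 0.48 and -0.08 (SE 0.13), called at ZT12 (limma adjusted p 0.00461) but not with the mean of its probes (0.35, 0.0584). Timp1, the soluble inhibitor that rises in fibrosis, was -0.42 to -0.01 (-0.25), -0.77 to 0.09 (-0.31) and -0.59 to -0.08 (-0.28) in controls. In knockouts it was -0.70 to 0.24 (-0.14), -0.87 to -0.28 (-0.46) and -0.80 to 0.25 (-0.44). Its groups overlapped at each time, with ratios of 0.04, -0.21 and -0.06 (95% intervals -0.31 to 0.40, -0.56 to 0.15 and -0.41 to 0.30). Timp2 gave 0.28, 0.38 and 0.46 (SE 0.19), with a limma adjusted p of 0.0502 at ZT16. Without knockout ZT8 replicate 3 it was called higher at ZT16. The gelatinase Mmp2 gave 0.42, 0.30 and 0.96 (SE 0.53). The ZT16 value was the largest of any member at that time but was not called. Mmp2 was well above background on 21 of 36 arrays, and on 2 of 6 controls at ZT16.

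Of 7 stellate and mesenchymal cell genes, 1 rose at ZT8 and 3 rose at ZT12 and ZT16, while Acta2 fell at ZT12 and ZT16. Pdgfra, a PDGF receptor of fibroblasts and other mesenchymal cells (chromosome 5, mm9, 75593888 to 75593947), was -2.03 to -1.51 (median -1.79), -2.24 to -1.23 (-1.81) and -1.60 to -0.93 (-1.24) in controls. Knockout levels were -1.70 to -0.37 (-1.14), -1.18 to -0.80 (-0.94) and -1.02 to -0.49 (-0.67), apart from controls at ZT12 and overlapping otherwise. Ratios were 0.66, 0.82 and 0.49 (SE 0.19; limma adjusted p 0.00604, 0.000657 and 0.0332). Its other probe, dim on most arrays, was also called at each time, with 1.51, 1.26 and 0.81. The ZT8 ratio was 0.48 without knockout ZT8 replicate 3 (0.0266) and was not called with only the 2 groups compared (0.0683). The ZT16 call was lost without any of 8 single ZT16 arrays (ratios down to 0.41).

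Pdgfrb, the receptor through which PDGF acts on stellate cells, was -0.17 to 0.33 (median 0.08), -0.57 to 0.06 (-0.44) and -0.44 to 0.17 (-0.21) in controls. Its knockout levels were -0.56 to 1.12 (0.15), -0.24 to 0.51 (0.14) and -0.06 to 1.12 (0.29), and the groups overlapped at each time. The ratios were 0.08, 0.51 and 0.54 (SE 0.20), called at ZT12 (limma adjusted p 0.0415) and ZT16 (0.0324). These calls were lost without any of 8 single ZT12 arrays and 5 single ZT16 arrays (ratios down to 0.42 and 0.41).

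Reln, an extracellular glycoprotein that marks stellate cells in liver, was 1.35 to 1.95 (median 1.83), 0.98 to 1.86 (1.45) and 1.20 to 1.81 (1.64) in controls. Among knockouts it was 1.34 to 2.18 (1.93), 1.98 to 2.22 (2.10) and 1.93 to 2.23 (1.98). All ZT12 and ZT16 knockouts lay above the controls of their time. The ratios were 0.11, 0.67 and 0.47 (SE 0.15; limma adjusted p 0.603, 0.000789 and 0.014), and within wash batches they were 0.65 to 0.76 at ZT12 and 0.29 to 0.51 at ZT16. Of 4 other Reln probes, 1 gave 0.03 at ZT12 and -0.09 at ZT16 and the rest 0.38 to 0.84.

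Lrat, the enzyme that esterifies retinol for storage in stellate cells, was -1.27 to -0.47 (median -0.81), -1.30 to -0.76 (-1.08) and -1.59 to -0.87 (-1.28) in controls. Its knockout levels were -1.48 to -0.50 (-1.28), -1.21 to -0.72 (-0.83) and -1.25 to -0.82 (-1.07), with overlap at each time. No ratio passed, at -0.28, 0.18 and 0.22 (SE 0.16; limma adjusted p 0.189, 0.385 and 0.294). Desmin (Des), a muscle-type intermediate filament of quiescent stellate cells, was -4.29 to -3.94 (-4.07), -5.37 to -4.22 (-4.77) and -4.17 to -3.11 (-3.88) in controls. In knockouts it was -5.23 to -3.28 (-4.06), -4.83 to -3.77 (-4.22) and -4.39 to -2.79 (-3.90). The groups overlapped at each time and the ratios were -0.21, 0.62 and 0.07 (SE 0.27; adjusted p 0.594, 0.0675 and 0.87). Without knockout ZT8 replicate 3 the ZT12 ratio of Des was called (0.62, limma adjusted p 0.0453). Only 3 of the 6 control arrays of that time read Des well above background. Vimentin (Vim), the filament of mesenchymal cells at large, gave -0.10, 0.37 and 0.25 (SE 0.31).

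Acta2, smooth muscle actin of myofibroblasts and vessel walls, was the member that fell, on 1 of its 3 probes. Its brightest probe, whose 60 bases lie over 34322995 to 34326249 of chromosome 19 (mm9), read 0.50 to 0.84 (median 0.73), 0.47 to 1.01 (0.78) and 0.62 to 1.24 (0.93) in controls. In knockouts it read 0.27 to 0.80 (0.52), -0.06 to 0.64 (0.24) and 0.39 to 1.05 (0.60), overlapping controls at each time. The ratios were -0.15, -0.54 and -0.32 (SE 0.12; limma adjusted p 0.364, 0.000516 and 0.0313). Its other probes, with SE of 0.52 and 0.55, gave 0.34 and 0.30 at ZT12 and 0.25 and 0.18 at ZT16, none called, and the mean of the 3 probes gave 0.03 at both times. The ZT16 call was lost without any of 6 single ZT16 arrays.

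The 3 growth factor and adhesion genes were all called at ZT12. Tgfb1, the transforming growth factor that activates stellate cells, was -2.18 to -1.81 (median -1.95), -2.32 to -1.66 (-2.05) and -2.29 to -1.65 (-2.21) in controls. Knockout levels were -2.33 to -0.94 (-1.84), -1.99 to -0.77 (-1.51) and -2.06 to -1.21 (-1.39), overlapping at each time. The ratios were 0.15, 0.58 and 0.51 (SE 0.19), called at ZT12 (limma adjusted p 0.0155) and ZT16 (0.0356). The ZT12 call was lost without knockout ZT12 replicate 6 (0.43, 0.0728). The ZT16 call held in 4 of 10 alternative settings and was lost without any of 8 single ZT16 arrays (ratios down to 0.42).

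Vcam1, an adhesion protein that endothelium and stellate cells present to leukocytes, was 0.26 to 0.93 (median 0.59), 0.99 to 1.49 (1.21) and 1.22 to 1.66 (1.33) in controls. Knockouts read 0.74 to 2.88 (1.32), 1.63 to 2.66 (1.81) and 1.31 to 2.14 (1.52), above all controls at ZT12. It had the largest rise called at ZT8, with ratios of 0.83, 0.85 and 0.21 (SE 0.22; limma adjusted p 0.00363, 0.00239 and 0.484). The ZT8 value was 0.56 (0.0122) without knockout ZT8 replicate 3, and it was not called with only the 2 groups compared (0.0768).

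In all, 7 members (Dcn, Lamb1, Lamc1, Sparc, Pdgfrb, Reln and Tgfb1) were called higher at ZT12 and ZT16 and not at ZT8, as were 4.61% of all genes, by the probe that stood for each gene, but the difference between times did not pass for any. No member of 42 passed the limma F test of the genotype effect across the 3 times, where 8.46% of all genes did, and 1 member (Timp3) had an unadjusted p under 0.05. For ZT12 against ZT8 none passed either (1.25% of all genes), with 3 unadjusted (Acta2, Des and Reln), and for ZT16 against ZT12 none passed (1.96%), with 2 unadjusted (Timp3 and Vcam1). For ZT16 against ZT8 none passed (9.74%), with 1 unadjusted (Lrat, difference of ratios 0.50, SE 0.23). Col18a1 passed the F test and the ZT16 against ZT8 comparison after quantile normalization and in the authors' table, and Timp3 passed the F test without knockout ZT8 replicate 3.

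Over time within controls, 1 member fell from ZT8 to ZT12, where 14.8% of all genes were called, 7.67% higher and 7.16% lower. From ZT12 to ZT16, 2 members rose (3.62% of all genes called, 1.66% higher and 1.96% lower). From ZT8 to ZT16, 4 rose and 1 fell (26.6%, 13.4% higher and 13.2% lower). Col4a1 fell from a median of -0.77 to -1.66 at ZT12 (difference -0.85, SE 0.29, limma adjusted p 0.0414). Des rose by 1.04 from ZT12 to ZT16 (SE 0.27, limma adjusted p 0.0269) and Mmp14 by 0.41 (0.034). In controls Des was well above background on 3 of 6 arrays at ZT12 and on all 6 at ZT16. From ZT8 to ZT16, Vcam1 rose by 0.79 (SE 0.22, 0.00691), Timp3 by 0.62 (0.000686), Pdgfra by 0.56 (0.0223) and Mmp14 by 0.42 (0.00508), and Lrat fell by 0.45 (SE 0.16, 0.0414). The Col4a1 levels were -1.36 to -0.62 at ZT8 and -2.28 to -1.19 at ZT12, which overlapped. Calls were lost without any of 9 single arrays for Col4a1 (difference then down to -0.74), 5 for Des (0.89), 7 for Mmp14 from ZT12 to ZT16 (0.34), 7 for Lrat (-0.37) and, for Pdgfra, control ZT16 replicates 3 and 6 (0.49). The control counts also changed in the fit without knockout ZT8 replicate 3. From ZT8 to ZT12, 2 members then rose (Timp3 and Vcam1) and 3 fell (Col4a1, Col4a2 and Des), with 16.6% of all genes called. From ZT12 to ZT16, 3 rose (Des, Mmp14 and Pdgfra, 4.56% of all genes called). From ZT8 to ZT16, 4 rose and 2 fell (Col4a2 and Lrat), with 28.5% of all genes called.

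Within knockouts, no member fell. From ZT8 to ZT12, 1 rose (13.2% of all genes called, 6.73% higher and 6.51% lower). Another rose from ZT12 to ZT16 (12.6%, 7.06% higher and 5.52% lower) and 2 from ZT8 to ZT16 (28.9%, 15.5% higher and 13.4% lower). Timp3 rose by 0.66 from ZT8 to ZT12 (SE 0.14, limma adjusted p 0.00124), and Acta2 by 0.41 from ZT12 to ZT16 (SE 0.12, 0.0211). Mmp14 rose by 0.46 (SE 0.11, 0.00204) and Timp3 by 0.36 (0.044) from ZT8 to ZT16. These counts depended on knockout ZT8 replicate 3. Without it 5 members rose from ZT8 to ZT12 (Lum, Tgfb1, Timp3, Vcam1 and Vim) and 9 from ZT8 to ZT16 (Dcn, Des, Lum, Mmp14, Pdgfra, Sparc, Timp3, Vcam1 and Vim).

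Other genes of the same pathways were called in both directions, where 16.7%, 19.6% and 20% of all genes were called higher and 18.7%, 22.7% and 20.1% lower at the 3 times. Of 19 collagen processing and cross-linking genes measured, 4 rose and 3 fell at ZT8, 5 rose and 5 fell at ZT12, and 6 rose and 7 fell at ZT16. Pcolce, which enhances procollagen cleavage, rose by 2.23 at ZT12 (limma adjusted p 3.99e-10) and Adamts14, a procollagen protease, by 2.32 at ZT8 (4.56e-06). P4ha2, a subunit of the prolyl hydroxylase of collagen, fell by 1.09 (2.49e-07) and the procollagen protease Bmp1 by 0.65 (1.73e-05) at ZT16.

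Of 22 genes of transforming growth factor beta and PDGF signalling, 4 rose and 2 fell at ZT8, 7 and 1 at ZT12, and 5 and 2 at ZT16. For this list and the next, the shares of all genes were 16.7%, 19.6% and 20% higher and 18.7%, 22.7% and 20.1% lower. The receptors Tgfbr3 (1.11 at ZT12, limma adjusted p 1.43e-09) and Tgfbr2 (0.98 at ZT8, 5.47e-09) rose, while the ligand Pdgfa (-0.92 at ZT8, 0.000277) and the receptor Tgfbr1 (-0.51 at ZT16, 0.000127) fell. Of 33 other matrix proteins and proteases, 4 rose and 6 fell at ZT8, 12 and 6 at ZT12, and 10 and 4 at ZT16. The metalloprotease Mmp11 rose by 2.93 at ZT16 (SE 0.17, limma adjusted p 5.13e-14) and the collagen Col6a4 by 1.56 at ZT12 (SE 0.56, 0.0246). Col6a4 was not well above background on every array. Col5a3 (-2.09) and the metalloprotease Mmp15 (-1.27) fell at ZT12 (limma adjusted p 1.49e-10 and 5.93e-10). The median ratios of the 3 lists were 0.16, 0.06 and 0.05 at ZT8, 0.06, 0.21 and 0.32 at ZT12, and -0.09, 0.13 and 0.23 at ZT16 (collagen processing first).

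Calls among stellate cell, sinusoidal endothelium and Kupffer cell markers were mostly higher in knockouts. Among all genes, 16.7%, 19.6% and 20% were called higher at the 3 times and 18.7%, 22.7% and 20.1% lower. The stellate cell count at ZT8 was near that share. Of 17 stellate cell genes, 3 rose at ZT8, 10 rose and 1 fell at ZT12, and 10 rose at ZT16, including the growth factor Hgf (0.84, 0.72 and 0.71). The gene that fell was Plin2 (-0.81), a lipid droplet protein that hepatocytes also express. Of 8 activated stellate cell genes none was called at ZT8, Acta2 and Spp1 fell at ZT12, and Acta2 fell and Postn rose at ZT16. The summed log2 level of the stellate cell list was 6.82 to 7.29, 6.69 to 7.10 and 6.72 to 6.98 in controls and 7.12 to 8.06, 7.07 to 7.44 and 7.19 to 7.47 in knockouts. That of the activated list was 3.79 to 4.12, 3.63 to 4.44 and 3.48 to 4.02 in controls and 2.97 to 4.47, 3.29 to 4.03 and 3.40 to 4.57 in knockouts.

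Of 10 sinusoidal endothelium genes, 0, 9 and 8 rose and none fell, with median ratios of 0.00, 0.54 and 0.46, and their summed level was 5.08 to 5.40, 4.93 to 5.27 and 5.06 to 5.63 in controls and 5.03 to 5.52, 5.33 to 5.88 and 5.46 to 5.81 in knockouts, without overlap at ZT12. Of 10 Kupffer cell genes, 2, 5 and 3 rose and none fell, with medians of 0.57, 0.75 and 0.61, and sums of 5.58 to 6.85, 5.29 to 6.96 and 5.56 to 7.36 in controls and 6.10 to 8.17, 6.47 to 7.98 and 6.63 to 8.37 in knockouts. Of 9 portal fibroblast genes 1, 2 and 2 rose and 0, 1 and 0 fell. All genes were called higher in 16.7%, 19.6% and 20% and lower in 18.7%, 22.7% and 20.1% at the 3 times. The Kupffer cell rises at ZT8 and the portal fibroblast rises were near those shares. Of 6 vascular smooth muscle genes none rose and 1, 2 and 2 fell, and of 8 hepatocyte genes 0, 2 and 0 rose and 2, 3 and 3 fell. The summed hepatocyte level was 11.92 to 12.22, 12.12 to 12.23 and 12.09 to 12.36 in controls. In knockouts it was 11.54 to 12.10, 11.68 to 12.03 and 11.83 to 11.95, wholly below controls at ZT12 and ZT16. No mesothelium gene of 6 was called, with 5 of them below background on some arrays, and 0, 0 and 1 of 7 bile duct genes rose and 0, 1 and 0 fell. The part of these cell types in the members' ratios was not tested.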

How the data were processed

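Liver RNA of 36 mice was measured on 1-colour Agilent arrays, 1 array per mouse. Per the file headers, each spot's intensity came from Feature Extraction 10.10.1.1, with background subtraction but no normalization between arrays, and probe positions are on mm9. Other deposited columns mark spots as outliers, saturated or well above background (0 or 1). A table from the authors gives 32801 probes on the log2 scale, with identical sorted values in all 36 columns; limma is named in the submitters' processing notes. That table was used as an alternative.

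Signal was taken to log2, and the 75th percentile of an array's non-control spots was subtracted. Outlier spots were left out, spots of a probe averaged, and 93 probes with a missing value dropped (none of a member). Of 56605 probes, 34771 were kept. Limma 3.58.1 in R 4.3.3 fitted 6 group means with wash batch as a fixed effect (28 residual and 2.25 prior degrees of freedom), and the fit was tested on simulated data. Arrays give no counts, so their number limits the precision.

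Members and lists were chosen with earlier results of these data known. Given in full are members called at all 3 times, those past the F test, the largest called rise and fall of each comparison, and Col1a1, Col1a2, Col3a1, Acta2, Des, Pdgfrb, Lrat, Reln, Timp1 and Tgfb1; of each further pathway list, the 2 called genes with the largest ratio in each direction. Named outside this rule, after their values were seen, were Dcn, Lamb1, Lamc1, Sparc, Timp3 and Thbs1 with the remaining members, and Hgf, Plin2, Spp1 and Postn among the markers. Leprel1, Lepre1, Loxl3, Ccn2, Itgb6, Itgb8, Tnc, Mfap5, Aspn, Mmp3, Mmp9, Mmp13, Adamts5, Cthrc1, Lmod1, Emr1 and Cd79a of the lists were not tested, and some marker genes are not reported here by name. Of 8 lymphocyte and neutrophil genes 2, 3 and 4 rose and 1, 2 and 2 fell, and of 4 red cell genes 0, 3 and 1 rose and 1, 1 and 1 fell, at ZT8, ZT12 and ZT16. Among all genes, 16.7%, 19.6% and 20% were called higher and 18.7%, 22.7% and 20.1% lower at these times. No genome of the files' build was used, so the exon each probe reads is not given. Alternatives were normexp, quantile normalization, other probe filters, the mean of a gene's probes, no wash term, slide or replicate number as a block, only the groups compared, the authors' table, and each array left out.

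No label says that replicate numbers pair the mice. Over 90 same-numbered pairs, residuals with group and wash batch removed correlated at -0.50 to 0.23 (median 0.02). Of 36 arrays, 3 correlated best with their own number.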

Additional observations from a re-analysis of the deposited data

Results flagged for a closer look

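In 252 sets of 6 arrays (42 members in 6 groups), the gap from the highest or lowest array to its neighbour, over the range of the set, passed the 95% limit of Dixon's test in 11, where chance gives about 1 in 20, or 12.6. All values are log2 levels, and none is explained here.

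Of these, 3 lay on control ZT16 replicate 6, each time as the highest: Col6a3 at -0.095 (others -0.73 to -0.57), Col14a1 at -2.07 (-2.71 to -2.58) and Des at -3.11 (-4.17 to -3.80). A further 4 lay on knockout ZT16 replicate 6, where Col4a1 was 0.11 (-1.56 to -1.09), Col4a2 was 0.16 (-1.24 to -0.90) and Thbs1 was -0.67 (-4.34 to -3.09), each the highest, and Fn1 was 7.31, the lowest (7.80 to 7.95). Control ZT8 replicate 2 held the lowest Col3a1 at 1.06 (1.72 to 2.08) and the lowest Timp3 at 1.58 (1.84 to 1.90). On knockout ZT8 replicate 3, Col18a1 was the lowest of its group at 6.76 (7.35 to 7.56). Lox on control ZT12 replicate 5 was -1.59 (-6.80 to -5.83).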

How the results depend on the processing

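Members called one way at all 3 times, 4 in number, came to 3 to 5 when single arrays were left out. Leaving out each array gave 5 to 6 called members at ZT8, 11 to 19 at ZT12 and 5 to 15 at ZT16 (5 without control ZT16 replicate 1 or 4), 0 to 1 past the F test and 0 to 0 for ZT16 against ZT8. Over time the ranges were 0 to 5, 0 to 3 and 4 to 6 in controls (ZT8 to ZT12, ZT12 to ZT16, ZT8 to ZT16) and 1 to 5, 0 to 1 and 1 to 9 in knockouts. With only the groups compared, 3 members were called at ZT8 (2 rose, 1 fell). Quantile normalization gave 5 that rose and 2 that fell at ZT8, and the authors' table gave 5 and 1. With normexp 13 rose and 3 fell at ZT12. At ZT16, where 12 were called, 6 were called with no filter on dim probes, where more genes are tested, and 7 with slide as a block. Quantile normalization and the authors' table each put 1 member past the F test and 1 in ZT16 against ZT8.

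In controls, ZT8 to ZT12 (1 member) gave 0 with no filter, 4 with probes well above background on all arrays, 3 with slide, 7 with only the groups compared and 2 in the authors' table. ZT12 to ZT16 (2) gave 0 with normexp or slide and 1 with no filter, the all-array filter, the mean of probes, only the groups compared or the authors' table. ZT8 to ZT16 (5) gave 3 with slide. In knockouts, ZT8 to ZT12 (1) gave 2 with the all-array filter, slide or the authors' table and 0 with only the groups compared. ZT12 to ZT16 (1) gave 2 with normexp or quantile normalization and 0 with the mean of probes. ZT8 to ZT16 (2) gave 1 with no filter, slide or only the groups compared. With the mean of its probes the ratio of Acta2 turned to 0.0335 at ZT12 and 0.0347 at ZT16, neither called (adjusted p 0.953 and 0.952). The cause of these shifts was not tested.

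With replicate number as a block, though no label says that it pairs mice, 5, 13 and 11 members were called at ZT8, ZT12 and ZT16. Single genes lost by it were Sparc at ZT12 and Tgfb1 at ZT16. The fit of only the groups compared was not run for calls at all 3 times or the F test. Signal over background limits Col5a2, Col15a1 and Lox, whose ratios rest on arrays mostly at background. It also limits Des at ZT12, where 3 of 6 control arrays were well above background.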
